A study of Mus musculus with 4 samples.

Results

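The binding of FOXA2 in the adult mouse uterus was set against the regions occupied by elongating RNA polymerase II in the same tissue state. Both lists came from chromatin immunoprecipitation and sequencing (ChIP-seq) of whole uterus from pseudopregnant females, labelled with days 2.5 and 3.5 of pseudopregnancy on 1 library for each antibody. The first antibody was a goat polyclonal to FOXA2. The second was a rabbit polyclonal to the C-terminal repeat of RNA polymerase II phosphorylated on serine 2, called POL2 in the labels. No allele, transgene or drug is named in the labels, nor is a strain or an adult age. The members were all listed intervals on chromosomes 1 to 19, namely 10235 of the 10373 adult FOXA2 intervals and 14524 of the 14818 adult POL2 intervals, out of 35977 intervals in the 4 lists of the series. The other lists, from uterus at postnatal day 12 (PD12), served as a second readout only. On chromosomes 1 to 19 they held 807 FOXA2 intervals and 9791 POL2 domains.

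FOXA2 is a forkhead transcription factor that can bind its sites in closed chromatin, and in the adult uterus it is made by the glandular epithelium, where it is needed for the glands to form and to support implantation. Phosphorylation of serine 2 marks polymerase that is elongating through the body of a gene, so its regions follow transcription units and differ in kind from the short sites of a transcription factor. Glands are one tissue of the uterus beside luminal epithelium, stroma and muscle. In whole uterus a FOXA2 interval and a POL2 region at the same place can therefore come from different cells, and fewer cells of a type cannot be told apart from less signal per cell.

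FOXA2 intervals had a median width of 686 bp (interquartile range 561 to 822) and covered 7.54 Mb. POL2 intervals, called domains here, had a median width of 4800 bp (2800 to 8000) and covered 94.0 Mb. That was 3.92% of the 2399 Mb between the first and the last listed interval of each chromosome, which is called the listed span. The lists hold positions only, with no height or read count, so the depth behind an interval is unknown. There was 1 library of each antibody and no replicate, so no test was made. Intervals in brackets after a share are exact (Clopper-Pearson) 95% limits and cover counting error only. The genome build is unnamed. On 9 of 19 chromosomes 161 intervals lay beyond the last gene of GRCm38.p6, 100 of them on chromosome 7, so GRCm38 genes were not placed on these positions. The genes that carry both marks, and the sequences under the intervals, are not reported here for that reason.

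The first question was how far each FOXA2 site lay from elongating polymerase. Most adult FOXA2 sites lay outside POL2 domains, yet they were much denser inside them than elsewhere. Of 10235 FOXA2 centres, 1956 (19.1%, 18.4 to 19.9) lay inside a domain, where 3.92% of the bases of the listed span lie, a ratio of 4.88 (4.68 to 5.07). A further 1115 centres lay outside but within 10 kb of a domain, which brought the share inside or within 10 kb to 30.0% (29.1 to 30.9) against 11.7% of bases. Within 50 kb the share was 52.2% against 27.1% of bases, and within 100 kb 66.2% against 37.9%.

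**Figure D1:**
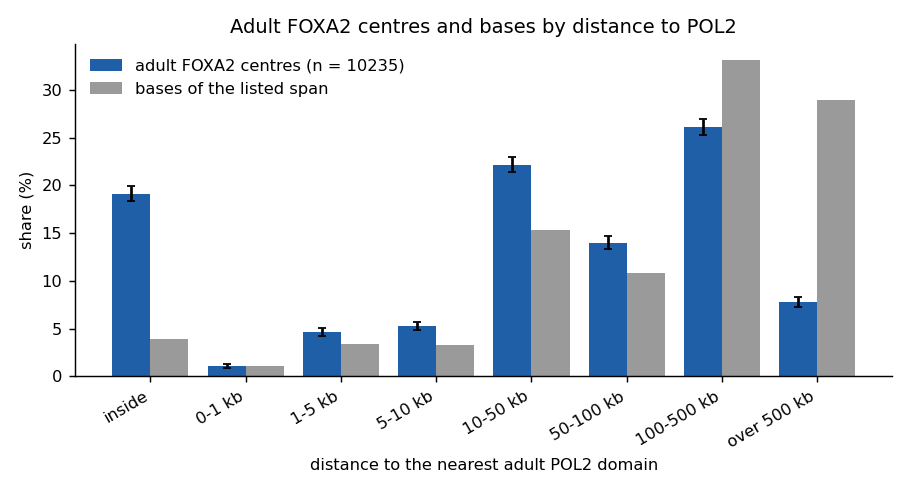
Share of adult FOXA2 centres (blue, with exact 95% limits) and of the bases of the listed span (grey) in each class of distance to the nearest adult POL2 domain, in percent. Centres exceed bases most inside domains (19.1% against 3.92%) and fall short most beyond 500 kb (7.75% against 29.0%).

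The 8279 FOXA2 centres outside domains lay a median of 71.5 kb (68.9 to 75.1) from the nearest domain, with quartiles of 22.6 and 207.4 kb. The change at the edge of a domain was abrupt, as the plot by distance class shows. In the first 1 kb outside an edge lay 107 centres, 1.05% of the list on 1.10% of the bases, a ratio of 0.949 (0.778 to 1.15). Further out the ratio was 1.36 (1.25 to 1.49) between 1 and 5 kb, and 1.59 (1.46 to 1.72) between 5 and 10 kb. It was 1.44 (1.39 to 1.50) between 10 and 50 kb and 1.29 (1.23 to 1.36) between 50 and 100 kb. Beyond 100 kb the centres were sparser than the bases, with ratios of 0.787 (0.761 to 0.813) up to 500 kb and 0.268 (0.250 to 0.286) farther away. FOXA2 sites were therefore densest inside domains, near the average beside an edge, and above average from 1 to 100 kb. The shares of bases count every base of the listed span, also any where reads cannot be placed. The size of the ratios depends on that choice, which their limits do not cover.

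Most FOXA2 intervals that overlapped a domain lay wholly inside it. The whole interval lay inside 1 domain in 1679 cases (16.4% of the list). The centre lay inside with an end outside in 277 (2.71%), and the centre lay outside with some overlap in 39 (0.381%). The share of crossings to be expected from the widths alone was not computed. Between neighbouring domains the density of FOXA2 centres depended on the width of the gap. Gaps of up to 5 kb held 23 centres on 7.65 Mb, or 3.01 per Mb (1.91 to 4.51, exact Poisson limits). The density was 5.10 per Mb (4.39 to 5.88) in gaps of 5 to 20 kb, 6.80 (6.22 to 7.41) in gaps of 20 to 50 kb and 6.32 (5.85 to 6.81) in gaps of 50 to 100 kb. It was 5.83 (5.63 to 6.05) up to 500 kb, 4.13 (3.92 to 4.35) up to 1000 kb, and 1.99 (1.91 to 2.07) in the 515 wider gaps, which make up 1208 Mb. Gaps of up to 5 kb and gaps of over 500 kb were thus both poorer in FOXA2 than gaps of 20 to 500 kb. Of the centres outside domains, 126 had a domain within 10 kb on both sides and 989 on 1 side.

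FOXA2 sites also lay closer to one another near domains. The nearest other FOXA2 centre was at a median of 20.1 kb for centres within 1 kb of an edge, 22.4 kb for those at 5 to 10 kb and 82.1 kb for those over 500 kb away. For centres inside domains it was 35.8 kb. A neighbour within 10 kb was present for 37.4% of the centres within 1 kb of an edge, 22.7% of those inside and 12.9% of those over 500 kb away.

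The width of a FOXA2 interval, the only feature of a site that the list gives, went with its place. Intervals inside domains had a median width of 888 bp. Outside, the median was 670 bp within 1 kb of an edge, 694 bp at 5 to 10 kb, 638 bp at 100 to 500 kb and 612 bp beyond 500 kb. The list was cut into 10 equal bins of width. In the narrowest bin (257 to 472 bp) 5.96% (4.59 to 7.59) of centres lay inside a domain, in the fifth 9.38% (7.66 to 11.3), in the ninth 38.6% (35.6 to 41.6), and in the widest (1054 to 6346 bp) 63.1% (60.1 to 66.1). All are to be read against the 19.1% of the whole list.

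**Figure D2:**
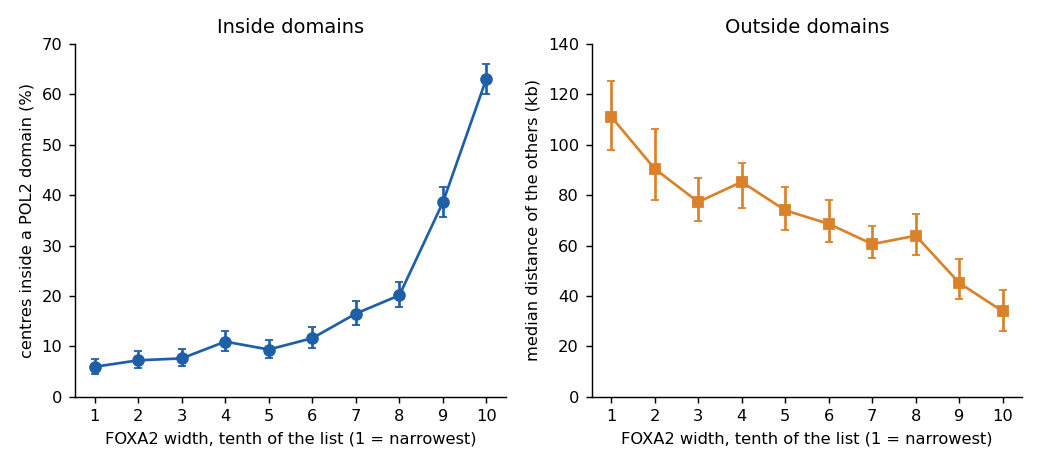
Left, percent of FOXA2 centres inside a POL2 domain for 10 equal bins of FOXA2 width. Right, median distance in kb of the remaining centres to the nearest domain. Bars are exact 95% limits. The share inside is highest in the widest bin (63.1%), and the median distance of the others is lowest there (33.9 kb).

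The same order was seen among the centres that lay outside. Their median distance to a domain was 111.2 kb (97.9 to 125.5) in the narrowest bin, 68.6 kb (61.3 to 78.1) in the sixth and 33.9 kb (26.0 to 42.4) in the widest. Of the outside centres in the narrowest bin 10.6% (8.72 to 12.7) lay within 10 kb of a domain, against 21.0% (16.96 to 25.4) in the widest. Sites over 500 kb from any domain made up 7.75% of the list, 13.2% (11.2 to 15.4) of the narrowest bin and 0.391% (0.107 to 0.998), or 4 intervals, of the widest.

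Narrow FOXA2 intervals were also denser inside domains than elsewhere, but by less. For the 50% narrowest intervals the ratio of centres to bases was 2.10 (1.91 to 2.30) inside, 1.52 (1.34 to 1.71) at 5 to 10 kb, 1.51 (1.43 to 1.59) at 10 to 50 kb and 0.354 (0.326 to 0.384) beyond 500 kb. For the 50% widest it was 7.65 (7.33 to 7.98) inside and 0.181 (0.160 to 0.203) beyond 500 kb. For the widest 10% it was 16.1 (15.3 to 16.9) inside and 0.177 (0.0215 to 0.639) within 1 kb outside, where 2 centres lay. At 100 to 500 kb, where 32.4% of the 50% narrowest lay, their ratio was 0.977 (0.938 to 1.02), against 0.597 (0.564 to 0.630) for the 50% widest. Whether width follows the strength of binding cannot be read from the lists.

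**Figure D3:**
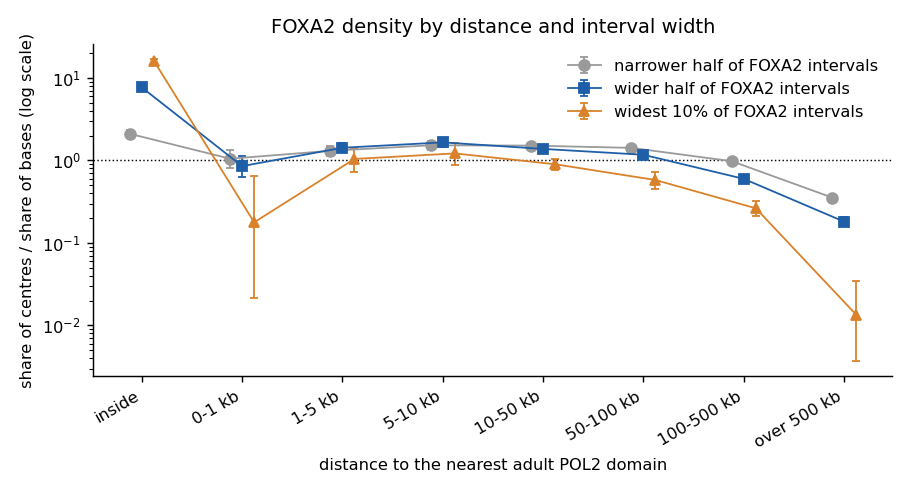
Ratio of the share of FOXA2 centres to the share of bases (log scale) by distance to the nearest POL2 domain, for the 50% narrowest intervals (grey circles), the 50% widest (blue squares) and the widest 10% (orange triangles), with exact 95% limits. The dotted line marks equal shares. Inside domains the ratios are 2.10, 7.65 and 16.1, and beyond 500 kb all 3 lie below 1.

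Seen from the polymerase, 1800 of 14524 domains (12.4%, 11.9 to 12.9) held a FOXA2 centre. Of these 1661 held 1, 123 held 2, 15 held 3 and 1 held 4, so that domains with at least 2 were 0.957% (0.805 to 1.13) of all. Domains with FOXA2 were wider (median 6400 bp, interquartile range 3400 to 10600) than domains without (4800 bp, 2800 to 7600). Domains without a FOXA2 centre lay a median of 47.4 kb from the nearest one, and 13.5% (12.9 to 14.1) of them had one within 10 kb of an end.

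Wide domains held FOXA2 more often, but fewer centres per base. A centre was present in 9.02% (6.88 to 11.6) of the 621 domains of up to 1 kb, 9.77% (8.80 to 10.8) of those of 3 to 5 kb, 18.1% (16.4 to 19.8) of those of 10 to 20 kb, 30.7% (26.3 to 35.4) of those of 20 to 40 kb and 52.0% (37.4 to 66.3) of the 50 wider ones. Per Mb of domain, the density went the other way. It was 117.6 centres per Mb (88.8 to 152.7) in domains of up to 1 kb and 25.3 (22.7 to 28.0) at 3 to 5 kb. It was 15.5 (14.0 to 17.05) at 10 to 20 kb, 16.0 (13.6 to 18.6) at 20 to 40 kb and 10.4 (7.18 to 14.7) over 40 kb. The share of domains with a centre changed little up to 5 kb, being 8.40% at 1 to 2 kb and 10.3% at 2 to 3 kb. The fall in density over these classes thus largely follows from domain width. The densest class of gaps had 6.80 per Mb, with an upper limit of 7.41 that lies above the lower limit for domains over 40 kb.

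The place of FOXA2 within a domain also differed with domain width. In short domains the FOXA2 centre was mostly in the middle of the domain, and in long ones it was more often towards the ends. The middle 50% of the domain held 78.6% (65.6 to 88.4) of the centres in domains of up to 1 kb, 78.8% (70.8 to 85.4) at 1 to 2 kb, 64% (56.9 to 70.6) at 2 to 3 kb and 63.4% (58.1 to 68.4) at 3 to 5 kb, where even spacing gives 50%. It held 48.7% (44.7 to 52.7) at 5 to 10 kb, 40.2% (35.4 to 45.2) at 10 to 20 kb and 34.1% (27.0 to 41.9) at 20 to 40 kb. Over 40 kb it held 18 of 33 centres (54.5%, 36.4 to 71.9), too few to tell from even spacing. The FOXA2 intervals had a median width of 770.5 bp in domains of up to 1 kb and 882 bp at 1 to 2 kb. A single interval can fill much of such a domain, so even spacing is a poor yardstick for the shortest classes.

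**Figure D4:**
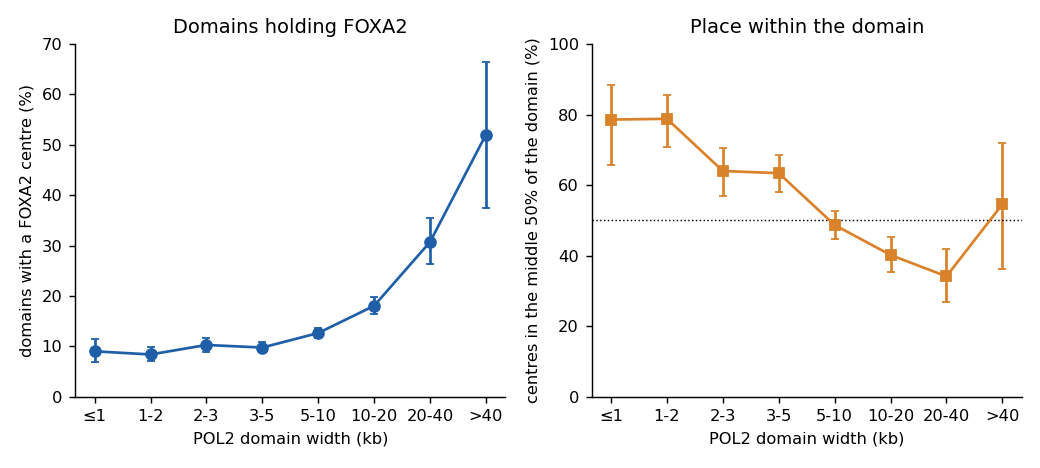
Left, percent of POL2 domains with at least 1 FOXA2 centre by domain width in kb. Right, percent of the FOXA2 centres inside domains that lie in the middle 50% of their domain, with even spacing (50%) dotted. Bars are exact 95% limits. The share in the middle is 78.8% in domains of 1 to 2 kb and 34.1% in those of 20 to 40 kb.

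The placement was also split by the width of the FOXA2 interval. In domains of over 10 kb, the middle 50% held 36.3% (31.9 to 41.0) of the centres of the 50% widest FOXA2 intervals and 48.3% (40.1 to 56.6) of the centres of the 50% narrowest. In domains of up to 3 kb it held 73.4% (68.2 to 78.2) and 60.3% (47.7 to 72.0). In domains of 3 to 10 kb it held 55.7% (52.1 to 59.3) and 48.0% (41.0 to 55.1). The differences between narrow and wide intervals were not tested. In the domains of over 10 kb the highest density of FOXA2 was found 1 to 2 kb inside an end. There were 13.8 centres per Mb (9.50 to 19.4) in the outermost 0.5 kb, 20.9 (15.5 to 27.6) from 0.5 to 1 kb, 23.4 (19.3 to 28.2) from 1 to 2 kb, 16.7 (13.3 to 20.8) from 2 to 3 kb and 11.02 (9.45 to 12.8) over 5 kb from either end. The lists carry no strand, so the end at which transcription starts cannot be told from the other.

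The domain with the most FOXA2 centres was at chr5:65192800-65226999, 34.2 kb wide. Its 4 FOXA2 intervals, of 1248, 896, 836 and 1337 bp, were centred 1.65, 4.70, 8.37 and 10.4 kb from the end with the lower position, so all lay in 1 part of the domain and the rest held none. Among the 15 domains with 3 centres, chr9:48523800-48597799 (74 kb) had them 8.07, 18.6 and 24.6 kb from the same end. Chr10:39319800-39371999 (52.2 kb) had 3 intervals of 1766, 906 and 1845 bp, at 13.0, 18.3 and 25.6 kb. At chr7:132694400-132728599 (34.2 kb) they were spread over the domain, at 1.31, 13.6 and 30.7 kb, and the first was also listed at PD12. Of the 31 FOXA2 intervals in the 10 domains drawn it was the 1 listed at PD12, where 5.68% of all adult intervals and 8.08% of those inside domains were. Short domains could be as rich, and chr4:94223000-94229399 held intervals of 953, 858 and 750 bp within 6.4 kb, 1 at each end and 1 in the middle.

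**Figure D5:**
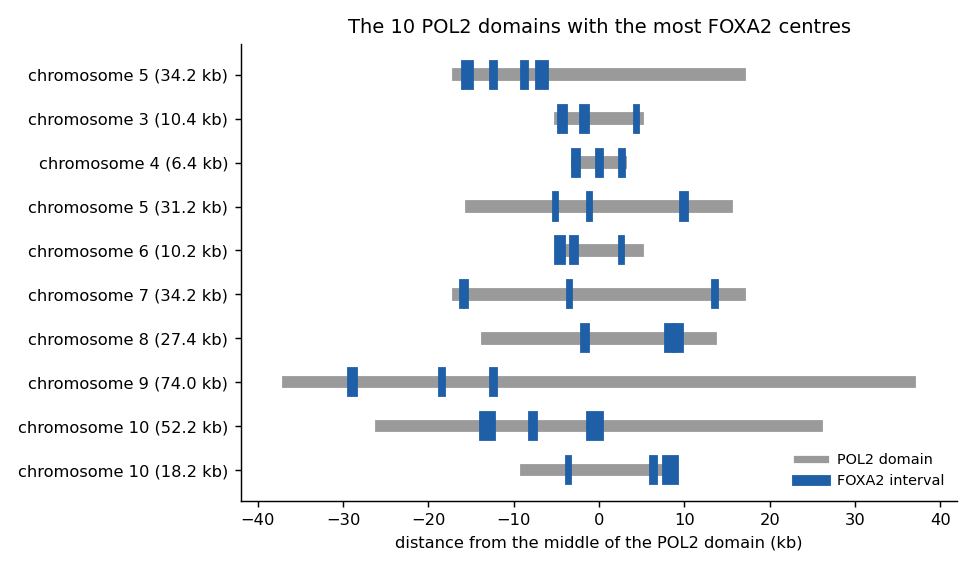
The 10 POL2 domains with the most FOXA2 centres (grey bars, drawn to scale around their middle, distance in kb) with their FOXA2 intervals (blue boxes). The top domain holds 4 FOXA2 intervals, all left of its middle, and the other domains hold 3 each and are the first 9 of 15 such domains in order of position.

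The 10 widest FOXA2 intervals inside domains measured 2537 to 6346 bp and lay in domains of 3.2 to 24.6 kb. The widest, chr17:39979544-39985889, nearly filled its domain of 6 kb, with 94.5% of their joint extent shared, and was also listed at PD12. Whether its reads came from sequence present in many copies was not tested, so it is not by itself evidence of binding by both proteins. The second, chr17:34255699-34259947 (4249 bp), lay near the end of a domain of 16.6 kb. The interval at chr6:38482480-38485335 (2856 bp) took up most of a domain of 3.8 kb, and chr11:70481773-70484412 (2640 bp) lay in the widest of the 10 domains, of 24.6 kb. None of the 10 had another FOXA2 centre within 10 kb, where 22.7% of all centres inside domains did, and each was the only FOXA2 centre in its domain.

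FOXA2 and POL2 with nearly equal extents, sharing at least 80% of their joint length, were seen at 22 places. The domains there had a median width of 1300 bp, and 4 of the 22 FOXA2 intervals were also listed at PD12, as were 5.68% of all adult FOXA2 intervals and 8.08% of those inside domains. In the widest of the 10 bins of FOXA2 width the share listed at PD12 was 12.2% inside domains. Beside the one on chromosome 17 the 22 places included chr1:180335233-180337257 (92.0% shared, 2025 bp) and chr15:89026301-89027787 (92.9%, 1487 bp). Whether reads came from both antibodies independently at these places was not tested, since the input was not used here.

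The 10 widest FOXA2 intervals outside domains were narrower, from 1978 to 3690 bp. They lay 7.75 to 105.0 kb from a domain, with a median of 17.8 kb. The median was 71.5 kb for all outside centres and 33.9 kb (26.0 to 42.4) for those in the widest bin of FOXA2 width. The widest, chr11:68935456-68939145, was 12.1 kb from a domain of 6.6 kb and had another FOXA2 centre 5.04 kb away. On the same chromosome chr11:68853560-68855749 (2190 bp) was 10.3 kb from a domain and was listed at PD12. It was 1 of 10 here, against 3 of the 10 widest inside domains and 5.68% of all adult intervals. In the widest bin of FOXA2 width the share listed at PD12 was 6.10% outside domains and 12.2% inside. At chr5:125884220-125886978 (2759 bp) the nearest domain was 10 kb away, and at chr3:37317591-37319670 (2080 bp) it was 105.0 kb away. A second FOXA2 centre lay within 10 kb for 5 of the 10, as it did for 22.7% of all centres inside domains and 22.3% of all those 10 to 50 kb outside.

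The FOXA2 centres farthest from elongating polymerase were on chromosome 1, in a gap of 11.5 Mb between domains (108693600 to 120188599). The gap held 11 FOXA2 centres. The farthest, chr1:114752578-114753181 (604 bp), was 5436 kb from the nearest domain. The next, chr1:113760445-113761040 (596 bp), was 5067 kb away. A group of 3 lay between 115309390 and 115344190, at 4845 to 4879 kb, and none of these 5 was listed at PD12, where 5.30% of all centres over 500 kb away were. The widest gap of all, chr15:12742200-25743799 (13.0 Mb), held 10 FOXA2 centres, or 0.769 per Mb, and the one at chr14:88301800-99425799 (11.1 Mb) held 6, or 0.539 per Mb.

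Among the widest POL2 domains the number of FOXA2 centres ranged from none to 3. The widest, chr1:170074000-170364599 (290.6 kb), held 1 centre, as did those at chr9:8897800-8990399 (92.6 kb), chr15:77586800-77674199 (87.4 kb) and chr4:104826600-104911999 (85.4 kb), while chr10:87320400-87403999 (83.6 kb) held 3. The widest domains with no FOXA2 centre were chr16:14187400-14285599 (98.2 kb), chr9:72509400-72601799 (92.4 kb), chr5:107524400-107604599 (80.2 kb), chr8:34882000-34958199 (76.2 kb) and chr3:122818000-122888999 (71 kb). All 10 of these domains overlapped a PD12 POL2 domain, as did 54.6% of all adult domains, and 80.8% of those over 40 kb with FOXA2 and 100% of those over 40 kb without.

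The pattern was seen on every one of the 19 chromosomes. The share of FOXA2 centres inside domains exceeded the share of bases on 19 of 19, and the share over 500 kb away was below that of bases on 19 of 19. The share inside ranged from 13.5% on chromosome 13 to 28.0% on chromosome 17, with a median of 19.01%. The share of bases in domains ranged as well, from 2.72% on chromosome 12 to 7.03% on chromosome 11. The ratio of the shares was lowest on chromosome 11 (3.57) and highest on chromosome 12 (6.98), and chromosome 17 had 6.63. Chromosome 19, with the most FOXA2 centres per Mb (6.01), had 24.6% of them inside domains on 6.51% of the bases and 1.72% over 500 kb away.

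The PD12 list gave a readout that the adult positions did not fix. Of the 10235 adult FOXA2 intervals 581 (5.68%) overlapped a PD12 FOXA2 interval. The PD12 list held only 807 intervals, which limits how large this share and those below can be. An adult site missing from so short a list was not thereby shown to be unbound at PD12. The share was 8.08% (6.91 to 9.37) inside adult POL2 domains and 5.11% (4.64 to 5.61) outside. Intervals inside are wider, and within classes of FOXA2 width the direction was not constant. These classes match width only in part. Among the 50% widest the median width was 985 bp inside, against 757.5 to 809 bp in the classes of distance outside. In the 50% narrowest the shares were 2.38% (1.14 to 4.32) inside and 3.13% (2.65 to 3.67) outside, and in the 50% widest 9.64% (8.21 to 11.2) and 7.70% (6.85 to 8.63). Over the 10 bins of width the share was higher inside in 4 and lower in 6. In the widest bin it was 12.2% (9.80 to 15.0) inside and 6.10% (3.91 to 9.01) outside, and in the ninth 8.86% (6.25 to 12.1) and 13.2% (10.6 to 16.1). Among centres outside, the share was 2.80% (0.582 to 7.98) within 1 kb, 5.08% (3.28 to 7.47) at 1 to 5 kb, 2.99% (1.72 to 4.80) at 5 to 10 kb and 4.72% (3.88 to 5.67) at 10 to 50 kb. It was 5.72% (4.58 to 7.05) at 50 to 100 kb, 5.58% (4.74 to 6.52) at 100 to 500 kb and 5.30% (3.84 to 7.09) beyond, so it showed no steady order with distance.

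The domains that held adult FOXA2 were set against the PD12 POL2 list of 9791 domains in the same way. Of all 14524 adult domains 54.6% overlapped a PD12 domain. In domains of up to 1 kb the share was 14.3% (6.38 to 26.2) with FOXA2 and 12.4% (9.79 to 15.4) without. At 1 to 2 kb it was 22.0% (15.2 to 30.0) and 25.6% (23.4 to 28.0), and at 2 to 3 kb 34.0% (27.4 to 41.1) and 36.2% (33.9 to 38.5). At 3 to 5 kb it was 41.8% (36.5 to 47.2) and 49.2% (47.5 to 51.0), with limits that did not overlap. At 5 to 10 kb it was 68.3% (64.4 to 72.1) and 66.1% (64.6 to 67.5), and at 10 to 20 kb 83.7% (79.4 to 87.4) and 84.8% (83.0 to 86.6). At 20 to 40 kb it was 97.6% (93.1 to 99.5) with FOXA2 and 89.7% (85.6 to 93.0) without, with limits that again did not overlap, in the other direction. Over 40 kb it was 80.8% (60.6 to 93.4) and 100% (85.8 to 100). The direction thus changed from class to class, and none of these differences was tested.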

How the data were processed

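The authors' deposited lists hold chromosome, start and end of called intervals, per the file headers, with no score, height or count. The submitters' processing notes name BWA. The peak caller, its cutoff, any role of the input and the build were not given in the sources used here. Adult POL2 starts were all multiples of 200 bp and domains were at least 800 bp apart, whereas 0.567% of FOXA2 starts were such multiples, so the lists were not made alike.

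Width was counted as end minus start plus 1. The distance ran from a FOXA2 centre to the nearest POL2 domain end, and was 0 inside. The share of bases at each distance was computed from the domain ends, with no random draws and no bases masked. Python 3.11.15, numpy 2.4.6, pandas 2.3.3 and scipy 1.17.1 were used. On simulated data, 100% of 25723 centres placed at known distances from adult POL2 domains were recovered.

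The members, bins and regions were chosen with earlier results of these data known. Named regions are the 10 domains with the most FOXA2 centres, the 10 widest FOXA2 intervals inside and outside domains, the 5 farthest centres and the 5 widest domains with and without FOXA2. From these, examples are printed. The regions of nearly equal extent were added after their values were seen. The bins by domain width, gap width and distance from a domain end, and the PD12 readout, were also added after the files were read. Alternatives are in the closing section. The planned gene, location and motif results and the gene and marker lists were not used, since no annotation or genome of the build was at hand.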

Additional observations from a re-analysis of the deposited data

Results flagged for a closer look

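Chromosome X was outside the comparison and held 138 adult FOXA2 intervals, of which 16 (11.6%, 6.77 to 18.1) had their centre inside an adult POL2 domain. It is listed because signal is present in data that the comparison did not use, and the median distance of the other centres on X was 155.4 kb. The share of bases in domains was not computed for X alone. With X added to chromosomes 1 to 19 that share fell from 3.92% to 3.72%, and the ratio of centres to bases rose from 4.88 to 5.11. The 11.6% on X is therefore not to be read against the 19.1% of chromosomes 1 to 19.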

How the results depend on the processing

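Of 26 values under other settings, for 4 results, 13 lay within the 95% limits of the reported value and 13 outside. The alternative without FOXA2 intervals of 2 kb or more was added after the data were seen, and it moved none of the 4. The share of FOXA2 centres inside domains (19.1%) was 12.1% with domains of 5 kb or more, 30.0% for the 50% widest and 8.23% for the 50% narrowest FOXA2 intervals. The share inside or within 10 kb (30.0%) was 19.8%, 41.2% and 18.8% under these 3 settings, and the median distance outside (71.5 kb) was 124.9, 58.0 and 85.4 kb. Domains holding a centre (12.4%) were 15.3%, 9.92% and 2.82% under them, and 16.6% with domains merged across gaps of up to 5 kb. Fewer domains or fewer intervals enter each of these settings. In each, the share inside domains stayed above the share of bases, by ratios of 3.96, 7.64 and 2.10. Without chromosome 17 the share inside was 18.8%, and with X it was 19.01%.

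No paired analysis was possible because there is 1 library for each antibody. Other settings for genes with FOXA2 and POL2, for location and for the motif were not run. The lists give no depth, which limits what the absence of an interval can show.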
